A study of Mus musculus with 67 samples.

Results

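The cis-regulatory elements (CREs) described here gained accessibility late, between days 4 and 6 of differentiation, in all 4 ventral neural progenitor (NP) types that were sorted. They were selected on their accessibility values: with samples of all concentrations of SAG, a Smoothened agonist that stands in for Sonic hedgehog (SHH), pooled, the mean on day 6 was at least 1.5 higher than the day 4 mean of the same NP type and than the day 3 neuromesodermal progenitor (NMP) mean in each of p0-1, p2, pMN and p3, and the highest day 6 mean was at least 7. Values are on the variance-stabilized (VST) scale, which is close to log2 for well covered elements, and a VST of 7 corresponds to 115 normalized counts. The selection gave 1983 of 111638 consensus elements (1.78%). Their gains from days 3 and 4 to day 6 therefore come from the selection and are described without a test. Day 5 took no part in it, and all tests below are within day 5. The level threshold had to be met only by the highest type. Some elements thus passed through the type in which they were then tested as higher on day 5. Such tests are not independent of the selection.

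All cells were HM1, a single wild-type mouse ES cell line. They were cultured in bFGF and LGK, then bFGF with CHIR99021, SB-431542 and DMH1 to reach NMPs on day 3, and retinoic acid (RA) from day 3 onwards, with SAG at 0, 10, 100 or 500 nM. In CaTS-ATAC, fixed and transposed cells were stained for intracellular transcription factors and sorted as NPs on SOX2 and by type on PAX6, NKX6.1, OLIG2 and NKX2.2. The 67 samples comprised 3 of day 3 NMPs without SAG, and on days 4 (23 samples), 5 (22) and 6 (19) p0-1 from 0 and 10 nM, p2 from 10 and 100 nM, and pMN and p3 from 100 and 500 nM, with 3 replicates in 17 and 2 in 8 of the 25 conditions. Replicates were independent differentiations. Reads in elements ranged from 9298160 to 29985325 per sample (median 20254011). Accessibility of a sorted population does not separate the share of cells in which an element is open from how open it is in each cell.

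The sorted labels were compared with accessibility near the genes used for the sort. For each gene the element with the largest range over all conditions, NMPs included, was read. A wide contrast therefore comes with the choice, and other elements of these genes are not described. The elements were distal, from 29603 bp (Sox2) to 140408 bp (Nkx6-1) from the transcription start site. In day 6 samples the most variable element nearest Pax6, the gene of a factor of the more dorsal types, had a mean of 1235 normalized counts in p0-1, 1267 in p2, 737 in pMN and 129 in p3. The Olig2 element, near the gene of the pMN factor, was highest in pMN (4797) and had 2236, 3050 and 1812 in p0-1, p2 and p3, so it was not closed in the other types. The Nkx6-1 element had 1105 in p0-1 and 2274, 2044 and 1100 in p2, pMN and p3, and did not separate p0-1 from p3. The Sox2 element, near the gene of a pan-neural factor, had 579 to 894 in the 4 NP types against 24.0 in NMPs.

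Neural progenitors of the spinal cord are laid out along the dorsoventral axis in domains that SHH sets up, and each domain makes its own class of neurons. They also change with time: progenitors of every domain first make neurons and later glia, and factors such as NFIA, SOX9 and ZBTB20 come on in the course of this change. Distal elements, in introns and between genes, carry most of the accessibility that differs between cell states, and transcription factors read them through short DNA motifs.

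The 8 elements with the largest gain in their least responsive NP type are shown first, because they set out what was selected and carry the hexamer described later. Each line gives the gene with the nearest transcription start site (TSS) and the 300 bases around the centre of the element, read from the forward strand of GRCm38 (mm10). Capitals mark AGGTCA on either strand (TGACCT on the reverse), the half-site of many nuclear receptors. It was present in 6 of the 8 windows and was absent from those of Gm38397 and Gm12130.
Tmem161b element (chr13:84515160-84515459): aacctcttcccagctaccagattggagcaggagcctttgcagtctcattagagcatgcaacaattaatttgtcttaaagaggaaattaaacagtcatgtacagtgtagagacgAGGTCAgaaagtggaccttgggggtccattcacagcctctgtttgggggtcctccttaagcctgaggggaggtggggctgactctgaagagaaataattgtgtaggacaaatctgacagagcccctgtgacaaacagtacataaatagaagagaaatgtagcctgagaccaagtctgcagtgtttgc
Prpf18 element (chr2:4452777-4453076): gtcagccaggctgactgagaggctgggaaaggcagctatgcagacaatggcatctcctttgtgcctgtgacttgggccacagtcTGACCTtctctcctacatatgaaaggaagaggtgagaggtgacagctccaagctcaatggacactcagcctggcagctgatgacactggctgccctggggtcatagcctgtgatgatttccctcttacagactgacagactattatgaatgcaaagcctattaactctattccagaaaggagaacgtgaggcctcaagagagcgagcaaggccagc
Sox3 element (chrX:60731287-60731586): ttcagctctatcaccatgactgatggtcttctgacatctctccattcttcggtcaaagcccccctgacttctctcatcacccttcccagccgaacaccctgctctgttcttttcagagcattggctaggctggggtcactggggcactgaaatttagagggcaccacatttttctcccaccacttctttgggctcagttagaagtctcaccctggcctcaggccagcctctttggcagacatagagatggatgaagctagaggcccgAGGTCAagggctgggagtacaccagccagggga
Parg element (chr14:32246032-32246331): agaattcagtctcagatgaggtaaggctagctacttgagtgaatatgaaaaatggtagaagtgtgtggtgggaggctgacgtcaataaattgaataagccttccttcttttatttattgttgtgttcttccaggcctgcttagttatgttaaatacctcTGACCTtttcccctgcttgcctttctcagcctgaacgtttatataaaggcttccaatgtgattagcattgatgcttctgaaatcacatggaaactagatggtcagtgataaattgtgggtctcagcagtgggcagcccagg
Gm38397 element (chr13:110771898-110772197): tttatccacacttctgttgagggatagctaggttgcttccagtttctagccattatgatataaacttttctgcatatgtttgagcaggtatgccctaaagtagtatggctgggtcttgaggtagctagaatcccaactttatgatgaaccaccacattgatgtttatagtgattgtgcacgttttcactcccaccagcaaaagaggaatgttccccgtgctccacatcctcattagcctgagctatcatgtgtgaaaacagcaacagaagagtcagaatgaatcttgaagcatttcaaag
Gm12130 element (chr11:38568669-38568968): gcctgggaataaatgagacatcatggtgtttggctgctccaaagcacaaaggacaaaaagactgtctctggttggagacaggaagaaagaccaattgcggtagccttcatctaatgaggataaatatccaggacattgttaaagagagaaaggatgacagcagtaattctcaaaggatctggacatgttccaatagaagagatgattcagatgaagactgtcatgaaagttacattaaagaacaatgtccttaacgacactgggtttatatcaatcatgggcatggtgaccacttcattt
Paqr3 element (chr5:97218712-97219011): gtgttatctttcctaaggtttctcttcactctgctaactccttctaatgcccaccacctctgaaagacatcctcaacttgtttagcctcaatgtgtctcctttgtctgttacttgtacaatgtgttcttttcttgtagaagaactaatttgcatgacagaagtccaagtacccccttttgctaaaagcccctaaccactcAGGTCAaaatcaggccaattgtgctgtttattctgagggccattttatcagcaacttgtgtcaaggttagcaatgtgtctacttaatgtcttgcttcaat
Kcnk5 element (chr14:20211868-20212167): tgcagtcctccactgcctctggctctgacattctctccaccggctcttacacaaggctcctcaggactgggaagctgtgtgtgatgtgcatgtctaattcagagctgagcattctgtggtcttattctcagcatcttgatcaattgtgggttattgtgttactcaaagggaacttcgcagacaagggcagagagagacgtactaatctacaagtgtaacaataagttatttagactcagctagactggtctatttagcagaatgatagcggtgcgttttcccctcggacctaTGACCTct

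None of these 8 elements lay at a promoter. The Prpf18 element was in intron 2 of Frmd4a (a FERM-domain scaffold gene), 199209 bp from the TSS of Prpf18, a splicing factor. The Parg element was in intron 9 of Parg, which encodes the enzyme that removes poly(ADP-ribose). The other 6 were intergenic. The Sox3 element lay 161994 bp from the TSS of Sox3, a SoxB1 factor of neural progenitors, the Tmem161b element 293013 bp from its TSS, and the Paqr3 (a Golgi membrane protein) and Kcnk5 (a potassium channel) elements 107265 and 30235 bp away. Nearest TSS is an annotation, not evidence of a target.

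The Tmem161b element had the largest gain of all (smallest gain over the 4 types 5.09 VST). It had 3.23, 4.05 and 4.85 normalized counts in the 3 NMP samples and from 4.42 to 32.5 (median 18.2) in the 23 day 4 samples. On day 5 the 22 samples ran from 384 to 628 (median 512) and on day 6 the 19 samples from 732 to 1407 (median 1029). No day 5 sample overlapped a day 4 sample. On day 6 the p3 samples (1094, 1141, 1145 and 1407) lay just above the pMN samples (763, 819, 996 and 1089). In p0-1 the 5 day 6 samples had 954, 1015, 1016, 1162 and 1299, and in p2 the 6 ran from 732 to 1229 (median 1019.5), overlapping both.

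The Sox3 element was at background on day 4, with 1.70 to 15.3 (median 6.31) normalized counts, as in NMPs (1.21, 4.05 and 4.31). On day 5 it had 192 to 561 (median 357) and on day 6 from 289 to 913 (median 730.5). The day 6 p3 samples (289, 413, 454 and 627) were all lower than the pMN samples (743, 758, 869 and 878). On day 5 the Sox3 element was 1.42-fold lower in p3 than in pMN at 100 nM (adjusted p = 0.072, limma) and 1.54-fold lower at 500 nM (adjusted p = 0.112, limma), and neither difference passed the test.

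The Paqr3 element showed the widest spread between types among the 8. It had 1.08, 2.70 and 3.64 normalized counts in NMPs and 5.89 to 63.9 (median 30.1) on day 4. On day 5 p3 had 163, 186, 224, 224 and 248, while pMN had 915, 1013, 1301, 1389 and 1689. On day 6 p3 had 330.1, 587, 806 and 1252 and pMN 2835, 2916, 2920 and 3254. The p3 samples stayed under every pMN sample on both days, and the day 6 p3 samples spanned a wider fold than those of any other type. At day 5 the Paqr3 element was 6.86-fold lower in p3 than in pMN at 100 nM SAG (VST difference -2.72 ± 0.20 SE, adjusted p = 1.21e-09, limma with Benjamini-Hochberg adjustment over all elements) and 4.69-fold lower at 500 nM (adjusted p = 1.23e-06).

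Of the remaining 5, the Kcnk5 element had reached the smallest part of its day 6 level on day 5: 38.2 to 183 normalized counts (median 85.5) on day 5 and 239 to 783 (median 554) on day 6. The Gm12130 element had no read in 2 of the 3 NMP samples and 322 to 1143 on day 6. The Prpf18 element reached the highest level of these, 1483 to 2589 normalized counts on day 6, with pMN (1891, 1970, 2327 and 2589) and p3 (1483, 1540, 1543 and 1684) not overlapping. Parg and Gm38397 elements had medians of 538 and 437 on day 5 and of 1017 and 899 on day 6.

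**Figure D1:**
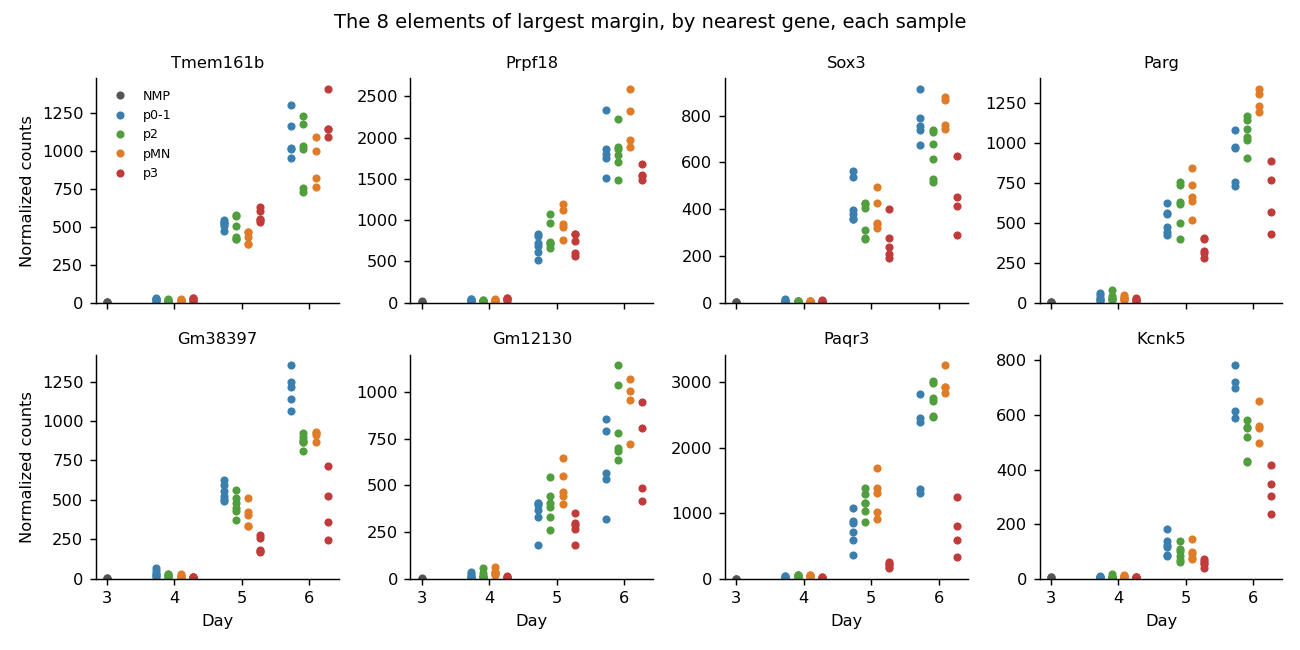
Accessibility of the 8 elements with the largest gain, in normalized counts (linear axis, own scale per panel), in each sample by day and cell type; points are samples. Day 3 and day 4 samples lie low in each panel and day 6 samples high, and for Paqr3 the day 6 p3 points (330.1 to 1252) lie under the pMN points (2835 to 3254).

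Over all 1983 late shared elements, the median accessibility was 6.33 normalized counts in NMPs, under the median of all elements (31.6), and 66.9% had an NMP mean under 10 normalized counts (34.0% of all elements). On day 4 the median was 23.9 in p0-1, 29.9 in p2, 31.2 in pMN and 22.4 in p3. On day 5 it was 134, 161, 171 and 101, and on day 6 it was 219.7, 268, 304 and 190.5. In the same samples the median of all elements stayed between 31.6 and 41.5, so the elements went from less accessible than the typical element to several-fold more accessible.

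The sample medians showed how far replicates agreed in the level of the set as a whole. They were 5.40 to 6.46 in NMPs, and on day 4 14.1 to 36.0 in p0-1, 21.9 to 43.4 in p2, 25.6 to 36.5 in pMN and 17.1 to 27.3 in p3. On day 5 they were 109 to 156, 119.6 to 209, 138 to 201 and 82.8 to 109.7, and on day 6 174 to 247, 239 to 300.01, 277 to 316 and 164 to 223. No day 5 sample was as low as any day 4 sample. The p3 samples were under all pMN samples on days 5 and 6. The p0-1 samples overlapped with pMN on day 5. On day 6 they too were under all pMN samples and overlapped with p3. The p2 samples overlapped with pMN on both days. The elements took 0.103 to 0.130% of the reads in elements in NMPs, 0.312 to 0.974% on day 4, 1.67 to 3.13% on day 5 and 2.51 to 4.56% on day 6.

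**Figure D2:**
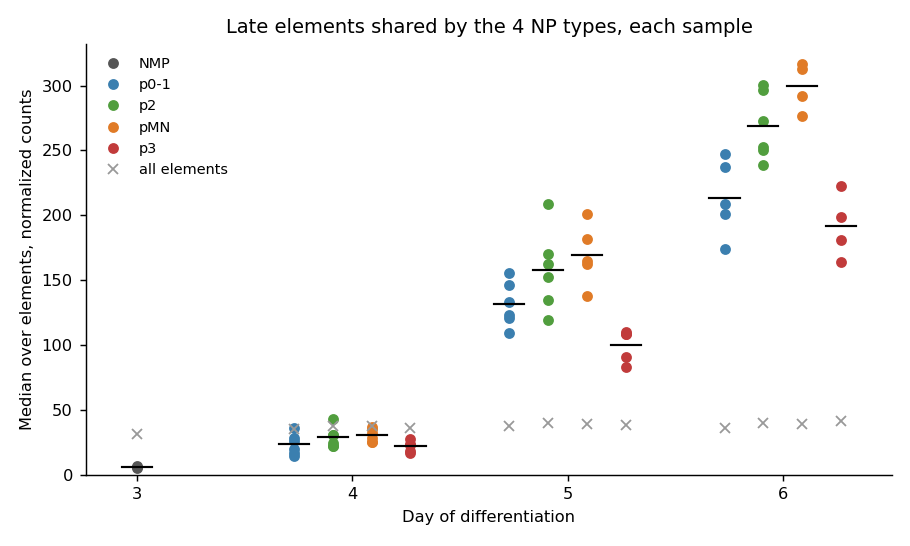
Median accessibility of the 1983 late shared elements in each of the 67 samples, in normalized counts (linear axis), by day and cell type; points are samples, black lines their means and crosses the median of all elements. The sample medians go from 5.40 to 6.46 in NMPs to 164 to 316 on day 6, and the p3 points lie under the pMN points on days 5 and 6.

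Part of the gain from NMPs was already present on day 4 in some elements. The day 4 mean was above the NMP mean in all 4 types for 1728 elements (87.1%), and 920 had a day 4 mean at least 1.5 higher in any type. The smallest gain over the types, which the selection held at 1.5 or more, had a median of 1.94 VST. It was under 2 for 1087 elements and at least 3 for 153. The smallest gain was found in p3 for 860 elements (43.4%), in p0-1 for 524, in p2 for 353 and in pMN for 246. These counts come from the values used in the selection and were not made over all elements.

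On the VST scale the gain was larger in the first day than in the second. In normalized counts this also held for the medians of p0-1, p2 and pMN. It did not hold for p3, with 22.4, 101 and 190.5 on days 4, 5 and 6. The median step from day 4 to day 5 was 1.85 VST in p0-1, 1.92 in p2, 1.94 in pMN and 1.63 in p3, and from day 5 to day 6 it was 0.68, 0.70, 0.73 and 0.78. On the VST scale day 5 lay at a median of 74.3% of the way from day 4 to day 6 in p0-1 (SD 0.973 over 3 replicate numbers), 73.5% in p2 (SD 4.62, n = 3), 73.7% in pMN and 67.7% in p3. For pMN and p3 2 replicate numbers had all 3 days, with 72.2 and 72.6% in pMN and 61.4 and 76.0% in p3, and the pooled pMN value also uses replicate 1 on days 4 and 5. The difference between p3 and the other types was thus no larger than that between the p3 replicates. In all 4 types 1468 elements had passed 50% by day 5, 73 had not in any, and none had a day 5 mean under its day 4 mean in any type.

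The NP types shared the gain but not the level. The range over the 4 day 6 means had a median of 1.30 VST. It was under 0.5 for 165 elements and over 2 for 337. Day 6 accessibility was highest in pMN for 854 elements, and lowest in p3 for 982 and in p0-1 for 611. It was highest in p3 for 396, so among these elements a lower level in p3 was common but not general. These counts rest on day 6 values, which the selection used. They were not made over all elements, so they do not set the late shared elements apart.

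Elements with a late gain in all 4 types were a minority of those with one in any. The same criteria were met in p0-1 by 5011 elements, in p2 by 5423, in pMN by 5774 and in p3 by 5763. Of the 9962 elements that met them in at least 1 type, 19.9% met them in all 4, 2089 in 3, 1882 in 2 and 4008 in 1. Of those that missed a single type, 1317 missed p3, 528 p0-1, 126 p2 and 118 pMN, and 2320 elements gained late in p3 alone. At the gain threshold, the elements just inside, nearest Gm31369 and D6Ertd474e, both had a smallest gain of 1.50 VST, and those just outside, a Nrxn3 element at chr12:89572935 and one nearest Pard3bos2, had 1.499 each. At the level threshold the highest day 6 means were 7.002 and 7.004 inside (Mir592 and 5430434I15Rik) and 6.997 and 6.993 outside (Mir450b and Pdcd1). The number of elements thus follows from where the thresholds were set.

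The gain was read again in samples that had no part in the selection. When the rule was applied without replicate 2, 1773 elements were chosen, 1568 of them among the 1983. In replicate 2 alone their median gain from day 4 to day 6 was 2.48 VST in p0-1, 2.66 in p2, 2.76 in pMN and 2.86 in p3, and 1426 (80.4%) gained at least 1.5 in all 4 types, against 2.58% of all elements. Without replicate 3, 2077 were chosen (1709 shared), and in replicate 3 the medians were 2.71, 2.63, 2.74 and 1.98. Here 1415 (68.1%) gained at least 1.5 in all 4 types (2.31% of all elements), and p3 held the count down, with 1483 elements (71.4%) past 1.5. By the sample titles replicate 1 has no day 6 sample of pMN or p3 and could not be used in this way.

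On day 5 neighbouring NP types were compared at a shared SAG concentration, p0-1 with p2, p2 with pMN and pMN with p3. Of these pairs pMN and p3 had the most elements called, most of them lower in p3, and other pairs of types were not compared. Elements were called at an adjusted p under 0.01 (limma on VST, all day 5 samples in one model, Benjamini-Hochberg over all 111638 elements) and a fold above 2 between mean normalized counts with 1 added. At 100 nM SAG, 897 of the 1983 (45.2%) were called, against a background of 26.5% of all elements, with 796 lower in p3 (40.1%, background 16) and 101 higher. At 500 nM 577 were called (29.1%, background 18.2%), 474 lower in p3 (23.9%, background 10.2) and 103 higher. Of the called late shared elements 88.7% at 100 nM and 82.1% at 500 nM were lower in p3, while of all called elements 60.5 and 56.2% were. The median difference over the 1983 was -0.71 VST at 100 nM (0.02 over all elements) and -0.49 at 500 nM (0.03).

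The calls at both concentrations overlapped. They shared 554 elements, 61.8% of those called at 100 nM and 96.0% of those called at 500 nM. All 554 had the same direction, 473 of them lower in p3. Over all elements the calls overlapped to a like extent, with 18920 called at both concentrations, 63.9% of those at 100 nM and 93.2% of those at 500 nM, again all in the same direction. The comparisons used different samples, although these came from the same series of differentiations. A test of whether the pMN to p3 difference itself changed between 100 and 500 nM called none of the 1983 (limma, adjusted p under 0.01), with 36 of the 1983 and 1307 of all elements at an unadjusted p under 0.05. Leaving out replicate 2 leaves 1 sample in each 500 nM group. The median difference at 500 nM was then -0.48 VST over the 1983 and 0.06 over all elements. With the elements restricted to a mean above 100 normalized counts, 1323 and 1227 of the 1983 were tested, and 45.3 and 32.2% were called against 20.0 and 16.2% of all elements that passed.

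The p3 samples also differed in promoter accessibility at genes listed as markers of another cell type. The summed promoter elements of 3 of the 6 floor plate genes listed, the ventral midline cells next to p3, were at 1261 to 1648 normalized counts in day 5 p3 samples and at 713 to 853 in the other day 5 samples. Those of 5 of the 17 neuronal genes were higher in day 5 pMN samples (3676 to 3970) than in all others, and overlapped between p3 (3189 to 3564), p2 (2924 to 3442) and p0-1 (2757 to 3501). No sample had either sum at 0, and NMPs had 4158 to 4868 for the neuronal and 1088 to 1380 for the floor plate promoters. Their part in the differences between pMN and p3 was not tested.

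The element with the largest fold between pMN and p3 was in intron 2 of Nrxn3 (chr12:89041471-89042330), a gene for a presynaptic adhesion protein. At 100 nM SAG it had 429, 308 and 538 normalized counts in pMN and 15.2, 14.0 and 23.7 in p3. This is a 22.8-fold difference (VST difference -3.89 ± 0.30 SE, adjusted p = 2.42e-09, limma with Benjamini-Hochberg adjustment). At 500 nM the values were 248 and 444 in pMN and 16.5 and 27.4 in p3 (15.1-fold, adjusted p = 8.10e-07, limma). The samples of both types were far apart at both concentrations, and Nrxn3 in p0-1 from 0 nM (87.4, 55.7 and 69.9) lay between them.

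An element 32803 bp from the TSS of Lhx3 (chr2:26175047-26175846), a LIM homeodomain factor of motor neurons and V2 interneurons, had 557, 459 and 513 normalized counts in pMN and 33.2, 21.6 and 35.2 in p3 at 100 nM. It was 16.5-fold lower in p3 (VST difference -3.65 ± 0.26 SE, adjusted p = 1.12e-09, limma with Benjamini-Hochberg adjustment). The Lhx3 element was also higher in pMN than in p2 at 100 nM, where p2 had 118, 83.3 and 75.9 (5.46-fold, adjusted p = 3.76e-05, limma), and higher in p2 than in p0-1 at 10 nM (4.33-fold, adjusted p = 7.40e-05, limma). It thus differed in every comparison of types while passing the same gain in all 4 by day 6. The 1700012H19Rik element (chr11:112885306-112885948) was 17.9-fold lower in p3 at 100 nM. At 500 nM an intronic element of Lipc (hepatic lipase, chr9:70914652-70915502) and one nearest Trpc7 (a cation channel, chr13:57086955-57088175) were 14.0- and 13.6-fold lower.

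The elements higher in p3 were fewer and had large folds too. The element nearest Cps1, a urea cycle enzyme gene 901602 bp away (chr1:68024166-68025093), had 44.5, 36.8 and 32.9 normalized counts in pMN and 762, 475 and 663 in p3 at 100 nM. It was 16.2-fold higher in p3 (VST difference 3.67 ± 0.26 SE, adjusted p = 1.06e-09, limma with Benjamini-Hochberg adjustment), and 12.6-fold at 500 nM. In Spats2l intron 1 (chr1:57849824-57850464) pMN had 24.9, 27.6 and 26.6 and p3 342, 256 and 283, a 10.8-fold difference at both concentrations. The element nearest Dnm3os (chr1:162121539-162122737), a noncoding RNA that hosts microRNAs, was 8.91-fold higher in p3 at 500 nM. The Spats2l and Dnm3os elements met the day 6 level threshold of 7 VST only in p3 (means 8.77 and 9.47). Their higher level in p3 is therefore tied to the selection.

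Between p0-1 and p2 at 10 nM SAG, 352 elements were called (17.8%, background 6.6%), 344 of them higher in p2 (background 6.31) and 8 lower. The largest folds were at the elements nearest Cntn5 (a contactin, 10.7-fold), 4933409F18Rik (10.4-fold) and Phldb2 (10.1-fold), all higher in p2, and the largest of those lower in p2 were nearest Ipo11 (2.77-fold), Gm8267 (2.51-fold) and 1700063D05Rik (2.48-fold). The Cntn5 element had 25.3, 6.10 and 3.39 normalized counts in p0-1 and 209, 134 and 56.9 in p2. It met the day 6 level threshold of 7 VST only in p2 (mean 7.36), so its higher level in p2 is tied to the selection. The 352 calls rested on few samples: 1 element was called without replicate 2 (also 1 of all elements), 107 without replicate 1 (930 of all) and 412 without replicate 3 (9805 of all). The median difference over the 1983 was 0.07 VST, against -0.04 over all elements. With each sample centred on its own median it was -0.03 against -0.14, so its sign depends on the scaling, while 329 elements were still called higher and 12 lower. Of the 1374 elements past the filter at 100 normalized counts, 225 were called (16.4%, against 4.54% of all elements that passed). The summed promoter elements of 15 of the 30 genes on the glial and late progenitor list did not overlap between day 5 p0-1 (7004 to 7338 normalized counts) and p2 samples (6232 to 6942), and their part in these differences was not tested. This sum was 8322 to 9757 in NMPs and 5604 to 9991 on day 4, so it did not rise with time from NMPs.

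Between p2 and pMN at 100 nM, 86 elements were called (4.34%, background 1.57%), 84 higher in pMN (background 1.35) and 2 lower, nearest Gm1653 (2.15-fold) and Slc30a8 (2.07-fold), the gene of a zinc transporter. With the replicate number as a block 197 were called. The count was 6 without replicate 1 (67 of all), 24 without replicate 2 (282 of all) and 36 without replicate 3 (637 of all). The highest fold was at the element nearest Mtnr1b, the melatonin receptor gene, in an intron of Fat3, with 19.3, 24.1 and 20.7 normalized counts in p2 and 139, 79.1 and 163 in pMN (5.72-fold, adjusted p = 0.000138, limma). Lhx3 and Tspan5 (5.16-fold) followed. The neuronal promoter sums given above did not overlap between p2 and pMN samples either (2924 to 3442 and 3676 to 3970), and their part was not tested. Of the 1983, 976 (49.2%) were called in none of the comparisons of types, against 69.6% of all elements.

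In the main fit, which leaves out the pairing by replicate number, few differences were called between SAG concentrations within a type. With the replicate block more were called in p0-1 and p2. In p0-1, 9 elements (0.454%, background 0.254%) were higher at 10 nM than at 0 nM and none lower. The count was 37 with the replicate block (1434 of all elements). It was 0 without replicate 1 (3 of all), 0 without replicate 2 (8 of all) and 4 without replicate 3 (158 of all). The largest fold was at the element nearest Mir3099, in intron 2 of Usp29, with 38.1, 24.7 and 20.0 normalized counts at 0 nM and 87.0, 80.4 and 95.8 at 10 nM (3.10-fold, adjusted p = 0.000179, limma). The Hps1 element, in an intron of Hpse2, had 46.5, 48.4 and 34.1 at 0 nM and 117, 89.5 and 150.003 at 10 nM (2.72-fold, adjusted p = 0.00623, limma), and that of Mir7232 was 2.55-fold higher.

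In p2 between 10 and 100 nM, limma called 0 of the 1983 (background 0.000896%), voom on the recovered reads also 0, while an unadjusted p under 0.05 was reached by 564 of the 1983 and by 15146 of all elements. The replicate block called 88 elements here, 85 of them lower at 100 nM, among 834 of all elements. Between 100 and 500 nM, 0 were called in pMN and 0 in p3 (background 0 in both), by limma and by voom, with 140 and 41 at an unadjusted p under 0.05 (2815 and 2672 of all elements). With the replicate block 1 was called in pMN and 0 in p3 (1 and 2 of all elements). The median difference over the 1983 was -0.20 VST in p2, -0.22 in pMN and -0.00 in p3, against -0.02, -0.02 and 0.01 over all elements. By the titles replicate 1 is present in pMN and p3 on day 5 at 100 nM and not at 500 nM. With the replicate block the medians were -0.13 in pMN and 0.08 in p3, and without replicate 1 they were -0.15 and 0.06.

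**Figure D3:**
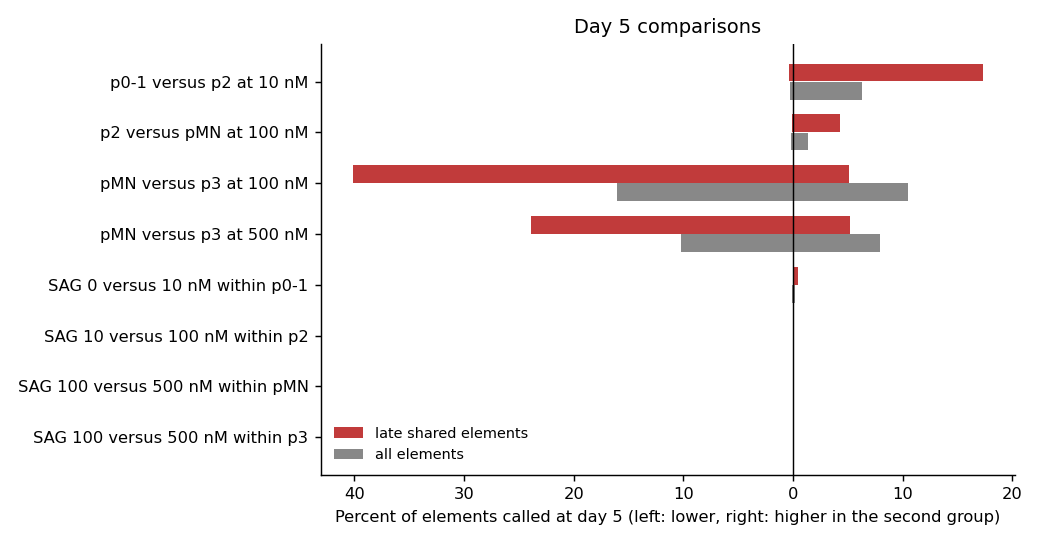
Share of the 1983 late shared elements and of all 111638 elements called on day 5 in each comparison (percent of elements, limma, adjusted p under 0.01 and fold above 2), with those lower in the second group to the left of 0 and those higher to the right. In this fit, without a replicate block, the share is largest between pMN and p3 at 100 nM (45.2% against 26.5% of all elements). It is 0 to 0.454% between SAG concentrations.

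The late shared elements were distal. By the deposited annotation 54.9% were intergenic (44.2% of all elements), 41.8% were in introns (41.1%), 2.12% were exonic (5.88%) and 8 elements (0.403%) lay at a promoter (7.41%). The median distance to the nearest TSS was 75501 bp, against 32610.5 bp for all elements. It was 51506.5 bp for 356 elements that opened by day 4 in all types and were kept to day 6 (early kept), and 37954 bp for 669 that closed between days 4 and 6 in all types (late lost). Late shared elements over 200 kb from a TSS made up 22.2% (11.6% of all elements). Median width was 976 bp, against 883 bp. The position was not used in the selection.

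They were spread over 1529 nearest genes, of which 1214 had 1 element and 28 had 4 or more, and 372 (18.8%) had another late shared element within 50 kb. The most, 8 of 23 elements, were nearest 4933409F18Rik. Epha5, the gene of an ephrin receptor, had 6 of 29. Tox3, Dach1 and Zfp608, genes of nuclear factors, had 6 each, of 55, 56 and 77 elements. Spats2l had 5 of 14, Mir99ahg 5 of 16 and 4930567K12Rik 5 of 17. Most elements near such genes were therefore not late shared elements.

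Lists of genes of neural development were then read. In the axon guidance list 45 of 830 elements (5.42%, against 1.78% of all elements) were late shared elements, near 16 of 35 genes. In the cadherin list it was 13 of 299 (4.35%), in the neurotransmitter receptor list 11 of 338 (3.25%), in the Hox list 6 of 87 (6.90%; Hoxa4, Hoxb4 and Hoxc4), in the proneural list 4 of 71 (5.63%) and in the NFI list 3 of 49 (1 nearest Nfia and 2 nearest Nfib). The glial and late progenitor list had 5 of 210 (2.38%), TGF-beta and BMP 5 of 275, neurons 5 of 178, temporal factors 2 of 137, the Notch pathway 2 of 135, neural crest 2 of 46, and SoxE and SoxD, Hippo and floor plate 1 each of 81, 70 and 81. None of the 184 elements near FGF and EGF receptor genes, the 57 of the heterochronic list, the 52 of the mesoderm or the 59 of the pluripotency list was among them. These shares are counts, and genes with many elements weigh more in them.

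For the lists the element with the largest smallest gain is given. Among the transcription factors, the Nfia element (chr4:97805891-97807098, intron 2), at the gene of a factor of gliogenesis, had 6.06, 10.8 and 11.8 normalized counts in NMPs and medians of 25.4 on day 4, 107 on day 5 and 285 on day 6. The Hoxc4 element (chr15:103029157-103030601), near a homeodomain gene of axial position, had medians of 38.9 on day 4, 347 on day 5 and 710.4 on day 6, and the element nearest Zfhx3, a zinc finger homeodomain gene, 136, 697 and 831.

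The Foxd3 element (chr4:99572596-99575377), near a neural crest gene, was already at 130.3 to 158 normalized counts in NMPs and reached medians of 1517 on day 5 and 1858 on day 6. On day 5 it was 3.31-fold lower in p3 than in pMN at 100 nM, where p3 had 485, 432 and 503 and pMN 1672, 1520.03 and 1519 (adjusted p = 1.44e-10, limma). The Sox5 element, in intron 1 of a SoxD gene, was 2.21-fold lower in p3 at 100 nM (adjusted p = 7.45e-05, limma), and the element nearest Hey1, a Notch target gene, 3.31-fold lower (adjusted p = 0.000424, limma). At 500 nM the Foxd3 element was called again (2.43-fold lower) and those of Sox5 (1.79-fold, adjusted p = 0.011) and Hey1 (2.47-fold, adjusted p = 0.0366) were not (limma).

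Among the signalling genes, the Shh element (chr5:28567399-28569144, in an intron of 9530036O11Rik) went the other way. At 100 nM it had 1314, 1165 and 1269 normalized counts in p3 and 610.2, 443 and 635 in pMN on day 5, 2.22-fold higher in p3 (adjusted p = 4.04e-07, limma). At 500 nM the difference was 1.95-fold, under the fold threshold (adjusted p = 0.000107, limma). Shh is on the floor plate list, whose promoters had a higher sum in p3 samples. The element in intron 2 of Bmpr1b, a BMP receptor gene, was 2.91-fold lower in p3 at 100 nM (adjusted p = 0.00064, limma) and had medians of 79.1 on day 5 and 492 on day 6. At 500 nM the Bmpr1b element had a 2.24-fold difference that did not pass (adjusted p = 0.0525, limma). The element at the transcript end of Ccn1, a matricellular gene of the Hippo list, had 573 to 1193 on day 5 and 895 to 1604 on day 6.

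Among the surface proteins, the Unc5d element (chr8:28855182-28855869, intron 3), at a netrin receptor gene, had the largest gain (4.29 VST), with medians of 25.6 normalized counts on day 4, 644 on day 5 and 1044 on day 6. The Cdh11 element, near a cadherin gene, opened later, with medians of 3.66, 28.2 and 180.0 on these days. On day 5 the Cdh11 element was 3.41-fold lower in p3 at 100 nM (adjusted p = 0.000234, limma). At 500 nM the VST difference of the Cdh11 element was -0.25 and did not pass (adjusted p = 0.565, limma).

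The Slc1a3 element (chr15:8644110-8645177, intron 6), at the gene of a glutamate transporter of radial glia and astrocytes, had 4.23 to 18.9 normalized counts on day 4 and 107 to 1043 on day 6. Its day 6 medians were 935 in p0-1, 477 in p2, 367 in pMN and 165 in p3. The Gap43 element (chr16:42351826-42352896), near a growth cone gene of neurons, had day 6 medians of 738, 477, 402 and 43.9. On day 5 the Gap43 element had 152, 115 and 75.5 in pMN and 15.2, 19.1 and 10.6 in p3 at 100 nM (7.22-fold lower in p3, adjusted p = 3.43e-05, limma).

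The sequence of the 300 bases around the centre was searched for motifs of factors of neural progenitors, as exact matches on both strands. AGGTCA, the hexamer in capitals above, was in 33.8% of late shared elements (95% Wilson interval 31.7 to 35.9), 19.8% of all elements, 19.1% of early kept (15.4 to 23.5) and 15.8% of late lost elements (13.3 to 18.8). The E-box CAGATG was in 32.6% (30.6 to 34.7), against 25.7% of all, 22.5% of early kept and 19.3% of late lost elements. The SOX hexamers ACAAAG and ACAATG were in 42.3 and 30.7% of late shared elements and in 31.1 and 21.1% of all, but early kept elements held them about as often (41.6 and 30.9%). The intervals cover counting error only, and neighbouring elements are not independent.

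The NFI palindrome, TTGGC and GCCAA 5 bases apart, was found in 0 of the 1983 windows, which allows a share of up to 0.193% (Wilson), and in 0.0287% of all windows. Its arm TTGGCA was in 16.4% of late shared elements (14.8 to 18.1), 14.9% of all, 15.4% of early kept and 17.9% of late lost elements. These shares did not separate the sets. No match says that these letters were not in the window, and leaves aside degenerate sites. The letters for TEAD (ACATTCC, 4.69% against 6.84% of all), CTCF (AGGGGGC, 4.03 against 6.68), GLI (GACCACCCA, 0.353 against 0.392), AP-1 (TGANTCA, 9.43 against 9.72) and the E-box CAGCTG (22.2 against 21.1) were at or under the share of all elements or within 2 percentage points of it. Homeodomain TAATTA (10.9 against 7.85) and the POU octamer ATGCAAAT (4.08 against 2.30) were more common than in all elements, but early kept elements held them in 10.7 and 3.09%, and the intervals of the octamer overlapped. RFX (GTTGCCA), FOX (TGTTTAC) and TCF/LEF (CTTTGAT) letters were also searched and are in the plot of motif shares.

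**Figure D4:**
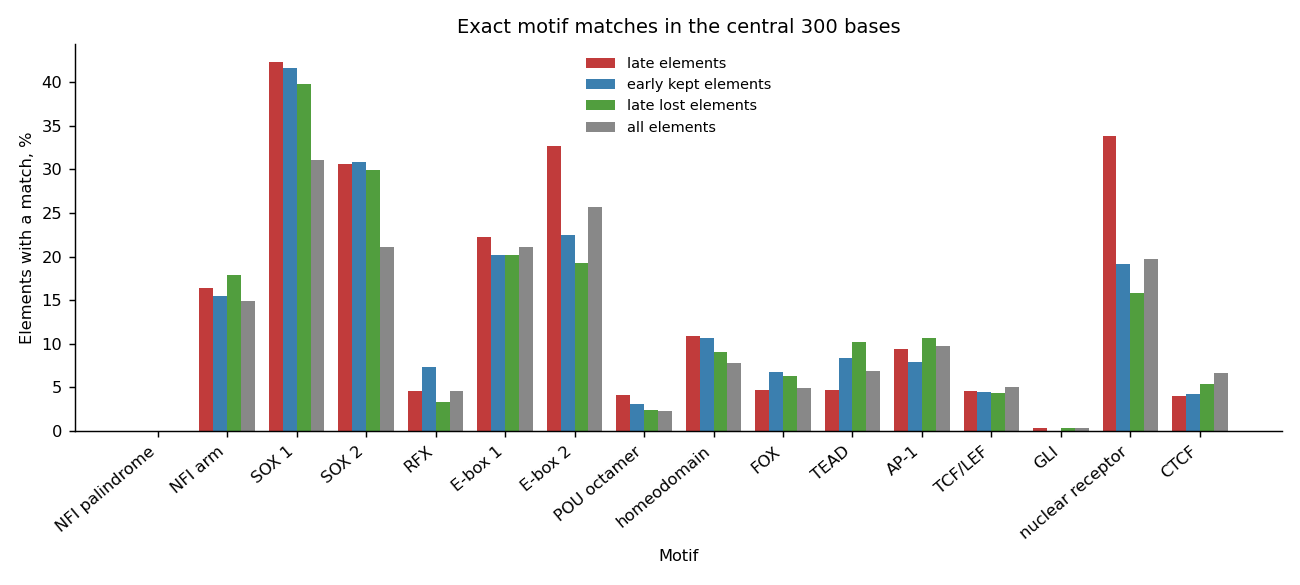
Percent of 300-base windows that hold each motif in late shared, early kept, late lost and all elements (late shared elements in red, labelled late elements). Labels give the factor family, with SOX 1 for ACAAAG, SOX 2 for ACAATG, E-box 1 for CAGCTG, E-box 2 for CAGATG and nuclear receptor for AGGTCA, which shows the widest gap (33.8% against 19.8% of all elements).

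Base composition differed between the sets, and the AGGTCA share was therefore read within GC classes, a reading added after its values were seen. Mean GC content was 44.5% in late shared, 45.8% in early kept, 47.3% in late lost and 49.4% in all windows, with means of 3.38 and 6.57 CpG in late shared and all windows. AGGTCA was in 21.2% of late shared windows under 40% GC (16.6% of all windows in that class), 35.2% between 40 and 45% (20.8%), 38.2% between 45 and 50% (21.9%) and 39.0% at 50% or more (18.7%). The share was higher than that of all elements in each class, and least so in the class of lowest GC. Without promoter elements it was 33.9 against 20.5%, in 200 bases 24.6 against 13.8% and in whole elements 65.4 against 48.8%.

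The hexamer was read in only some of the sets that gained late in fewer types, and was less common there than in late shared elements. It was in 26.8% of the elements that gained late in p0-1, p2 and pMN but not p3, and in 22.8% of those that gained late in p3 alone. CAGATG was in 31.4 and 25.1% of these sets. When all 2080 hexamers were ranked by the share in late shared elements minus that in all, ATAAAT came first (32.2 against 17.2%) and AGGTCA was the next (33.8 against 19.8%). By the ratio of these shares ATAAAT ranked 2 and AGGTCA ranked 9 (1.88 and 1.71 times the share of all elements). Direct repeats of AGGTCA were few. At a gap of 1 base 3 late shared elements had one (0.151%, against 0.145% of all elements). At a gap of 4 it was 3 (0.151 against 0.0331%). Gaps of 5 and 6 had 2 each (0.101%, against 0.0591 and 0.0260% of all elements). A gap of 2 had 1 (0.0504 against 0.0439%), and the other gaps from 0 to 8 bases had none.

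AGGTCA was also placed towards the middle of the elements. In 1815 late shared elements of at least 601 bp, 4.30 to 7.16% held it in a given 50-base bin, against 3.34 to 3.59% of all elements of that width. The late shared elements were above all elements in each bin.

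**Figure D5:**
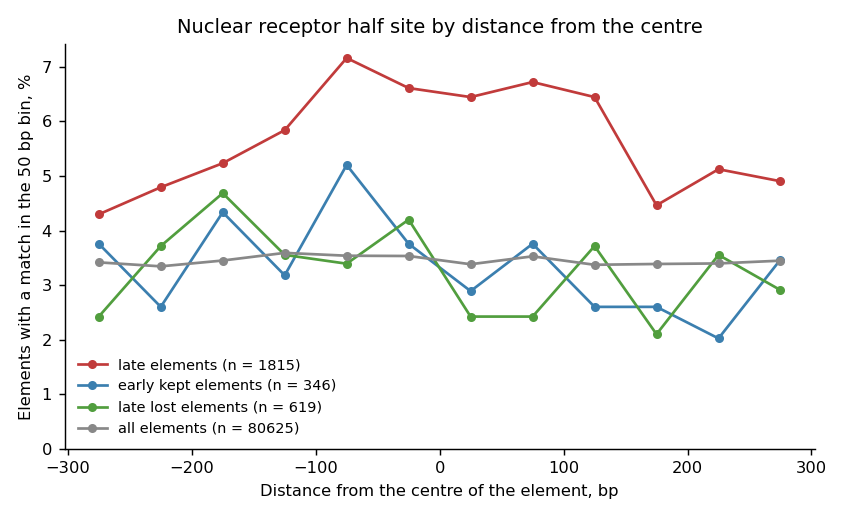
Percent of elements of at least 601 bp with AGGTCA in each 50-base bin, by distance in bp from the element centre, for 1815 late shared elements (late elements), 346 early kept, 619 late lost and all elements. The late shared line runs from 4.30 to 7.16% and the line of all elements from 3.34 to 3.59%.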

How the data were processed

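The 67 sorted samples were assayed by CaTS-ATAC, a measure of accessible chromatin. The authors aligned the reads to mm10 with nf-core/atacseq, called peaks with MACS2, merged them into consensus elements, annotated these with HOMER and counted reads in them. The deposited log2-like VST values were made by the authors with DESeq2 from those counts. A second deposited table gives each element's position, annotation and distance to the nearest TSS.

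VST values were inverted to normalized counts and to reads. In every sample 100% of values under 1000 reads came out whole within 0.001 reads, and the sums give the depth. No 2 libraries of a condition agreed within counting noise (least chi-square per element 1.90, replicate r2 over all elements 0.875 to 0.976). The members, gene lists and motifs were chosen with earlier results of these data known, and the hexamer ranking and the readings of AGGTCA within GC classes, windows and other sets were added after seeing values.

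The main test was limma 3.58.1 in R 4.3.3, with a variance trend, on the VST of the 22 day 5 samples grouped by type and SAG, two-sided, with Benjamini-Hochberg adjustment over 111638 elements. The authors' own tests used DESeq2 on counts. Limma was used here because the deposited values are on a log2-like scale, and limma voom on recovered reads was an alternative. On simulated data with 200 changed elements among 111638, the pMN to p3 fit at 100 nM recovered 174 of 200 at 2.5-fold and 200 of 200 at 4-fold, with 2 false calls each. At 500 nM it recovered 98 and 198, with 3 false calls each. The simulated samples were independent, with a fixed dispersion and the same mean in all groups except at the changed elements. Deviations shared by replicates were left out, so these figures are not error rates of the tests on the real data.

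Replicate numbers were taken from the sample titles and name independent differentiations. Same-numbered samples deviated together in every comparison (lowest r 0.267), so the numbers pair the samples, and a fit with the replicate block was run beside the main one. Medians for different numbers were under 0, which follows from taking deviations from each condition mean and adds no evidence. In 15 samples, among them all day 5 samples at 500 nM, the number in the column name differs from that in the title. With the column numbers the correlations between 100 and 500 nM were -0.326 and 0.0784 in pMN and -0.352 and 0.00529 in p3, against 0.326 to 0.403 and 0.352 to 0.386 with the titles. A block with the column numbers was added as an alternative after seeing the data. Other alternatives were a mean above 100 normalized counts, all 67 samples in one fit, centring on each sample's median, and leaving out each replicate number.

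Elements named in the text are the 8 with the largest smallest gain, the one with the largest smallest gain on each gene list, the 8 genes with most elements, up to 3 of the largest fold in each direction of each day 5 comparison, and the 2 on each side of each threshold, except a few that are not reported here. Sequences were read from the GRCm38 reference, in which all elements lay within their chromosome. Elements of Nkx2-2, the p3 sorting marker, were not analysed here.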

Additional observations from a re-analysis of the deposited data

Results flagged for a closer look

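Each NP type and day was searched for a single sample that stands apart, in the median of the late shared elements and in the 8 elements with the largest gain. Of 108 searches, each of the median or of 1 element in a group of 4 to 6 samples, 3 found one. Chance alone flags about 1 in 20 searches, a larger share than was found. Searches in the same samples are not independent.

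The Gm38397 element had a VST of 4.05 in day 4 p3 at 500 nM SAG, replicate 1, below the other day 4 p3 samples (4.40 to 4.52). This is a low value in samples where the element was nearly closed, and the gap corresponds to few reads. The Gm12130 element had 7.58 in day 5 p0-1 at 0 nM, replicate 3, below the other day 5 p0-1 samples (8.42 to 8.71). The Kcnk5 element had 4.83 in day 4 p2 at 100 nM, replicate 1, above the other day 4 p2 samples (3.86 to 4.18). In none of these samples was the median over all 1983 elements singled out.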

How the results depend on the processing

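Of 107 recomputed summary values 77 stayed within 1.5 times the count, or within the replicate spread of the value, and 30 did not. The filter at a mean of 100 normalized counts gave 225 elements between p0-1 and p2. The replicate block gave 197 between p2 and pMN, 37 between SAG 0 and 10 nM in p0-1, 88 between 10 and 100 nM in p2 and 1 between 100 and 500 nM in pMN, and moved no other count by over 1.5 times. With the numbers of the column names the block gave 164, 21, 4 and 0 (2973, 847, 33 and 0 of all elements). A fit of all 67 samples gave 1 between 0 and 10 nM in p0-1 (60 of all elements). Leaving out 1 replicate number gave 1 to 412 (p0-1 and p2), 6 to 36 (p2 and pMN), 261 to 522 (pMN and p3 at 500 nM), 0 to 4 (SAG in p0-1) and 0 to 1 (10 and 100 nM in p2). These fits have fewer samples; the cause of other changes was not tested. A gain of 2 in place of 1.5 left 896 elements. The position of day 5 was 76.9% in p0-1 and 75.6% in pMN on log2 of normalized counts, 71.9 and 73.0% with centred samples, and 73.2 to 75.5% and 72.5 to 75.0% without 1 replicate number. The NFI arm was in 11.1% of 200-base windows and 44.5% of whole elements, as window length requires. For the named elements of largest fold, 165 of 201 recomputed tests kept their call, 36 lost it and 0 reversed, and 12 of 26 kept it in every alternative. None was lost under the replicate block, the filter or centring. Those lost were 10 without replicate 1, 13 without replicate 2, 5 without replicate 3, 6 in the fit of all samples and 2 with voom. All 6 named between p0-1 and p2 were lost without replicate 2. Elements with few reads on days 3 and 4 limit the precision of the gains.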
